A study of Ovis aries with 18 samples.

Results

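In the skeletal muscles of lambs, 31 genes of 20477 in the deposited table were low in longissimus lumborum (LL) and at similar, higher levels in psoas major (PM) and soleus (SOL). They were chosen by a rule on the mean FPKM of the 6 libraries of each muscle, where FPKM is the number of reads per 1000 bases of gene and per 1000000 counted reads. The PM mean had to be at least 5 FPKM, the PM and SOL means each at least 2 times the LL mean, and the PM and SOL means within 1.5 times of each other. The same 18 libraries gave the values below, so the low level in LL and the evenness of PM and SOL are what the rule selected and are given as a description.

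The study sequenced ribosome-depleted total RNA from 3 muscles of lambs, with the samples numbered 1 to 6 in each muscle. LL came from the loin, PM is the tenderloin muscle and SOL is a postural muscle of the hind leg. All samples were taken from the left side of the carcass, and no treatment, breed or age is given in the labels. The p-values below measure the spread between these samples, since the labels do not say which animal a number stands for. Whole muscle holds fibres, connective tissue, vessels, nerve and fat, and in such samples fewer cells of a type cannot be told apart from less RNA per cell.

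Muscles differ in the share of slow, oxidative and fast, glycolytic fibres they contain. Longissimus is known as a mainly fast muscle of the back, and soleus as a mainly slow muscle that works against gravity. The deposited table pairs its Ensembl identifiers with no gene names, and 0 identifiers matched the RefSeq gene table used. Neither the functions of the members nor the markers of the labelled tissues could be given for this reason, and only the identifiers on which a result turns are printed, without sequences or positions.

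Library totals ranged from 10216739 to 14747118 reads. At least 1 read was found for 12704 to 14552 genes in LL, for 14647 to 14942 in PM and for 14181 to 15421 in SOL. SOL 5 had the lowest number among the SOL libraries. The members with few reads are given separately below. Whether the fewer genes with a read in LL bear on them was not tested.

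The members took a small and muscle-dependent share of the reads. It was lowest in LL 5 at 0.346%, and the LL libraries reached 0.891%. In PM it ran from 0.973% to 2.11%, and in SOL from 1.44% to 2.12%, so that no LL library reached a library of the other muscles. The 2 most abundant members held most of these reads, with shares of 90.1% to 96.9% for LL libraries, 92.3% to 95.7% for PM and 93.1% to 94.7% for SOL. Of the 31 members, 2 exceeded a PM mean of 1000 FPKM, 2 lay between 100 and 1000, 6 between 20 and 100, and the other 21 between 5 and 20.

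The ratio of the PM mean to the LL mean had a median of 2.38 over the members and a range of 2.02 to 9.84. For SOL over LL the median was 3.02 and the range 2.09 to 7.87. On the log2(FPKM + 0.1) scale, the median difference of the members was 1.37 for PM against LL and 1.62 for SOL against LL. Over all 15434 genes tested the medians were 0.06 and 0.24. Median-ratio scaling of the libraries lowered the latter to 0.12, and the members' median for SOL against LL became 1.502. After that scaling all 31 LL means were still below the PM and SOL means, by at least 1.99 and 1.90 times.

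In limma's model of all genes, 13 of the 31 members were called higher in PM than in LL at an adjusted p under 0.05, beside 0.933% of all genes tested. For SOL against LL, 28 members were called higher in SOL, beside 17.1% of all genes. Both comparisons share the LL libraries. All 13 members called against PM were also called against SOL, 15 were called against SOL only, and 3 were called in neither comparison; 0.765% of all genes were called lower in LL in both. Since the rule used these contrasts, the counts describe how far the members' spread allowed a call. Without LL 2, LL 3 and LL 5 the counts were 9 for PM against LL and 20 for SOL against LL. All genes called in either direction also fell, from 229 to 146 for PM against LL and from 3915 to 3014 for SOL against LL. With the replicate number as a block, 21 members and 415 of all genes were called for PM against LL. For SOL against LL the block gave 31 members and 4543 genes.

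Overlap between muscles was common among the members in spite of their folds. Every PM library exceeded every LL library for 11 members, beside 0.719% of genes tested. Every SOL library exceeded every LL library for 13 members, beside 7.25% of genes. Both held for 8 members, beside 0.415% of genes, and all 8 were longer than 300 bp. Compared within replicate numbers, LL was the lowest of the 3 same-numbered libraries in all 6 numbers for 19 members, in 5 numbers for 10, and in 4 and 3 numbers for 1 member each. Over all genes tested, 2.21% had LL lowest in all 6 numbers.

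**Figure D1:**
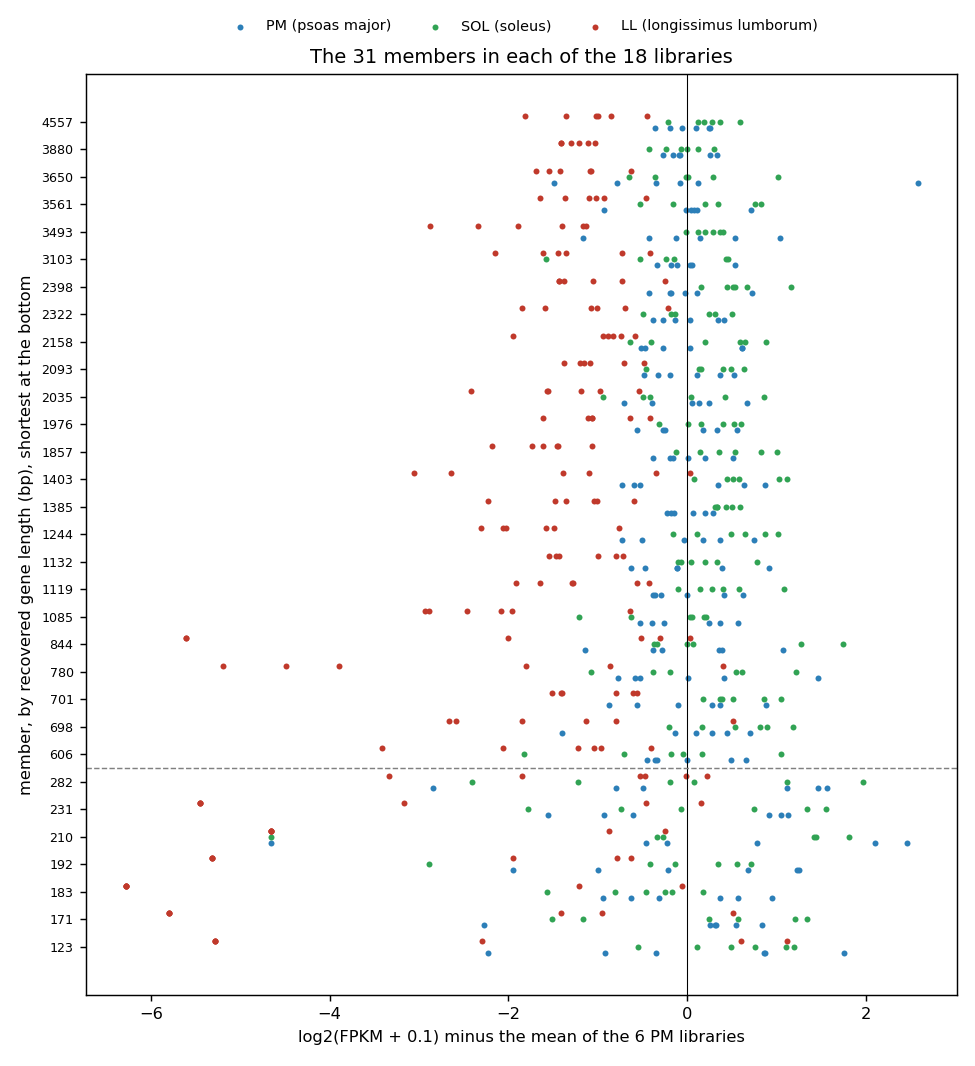
Each row is 1 of the 31 members, ordered by recovered gene length in bp, and each point is 1 library, as log2(FPKM + 0.1) minus the mean of the 6 PM libraries; the dashed line separates the 7 members under 300 bp from the other 24. LL points lie left of the PM mean for most rows, and in 6 of the 7 rows of short genes several LL points coincide at the far left because LL 2, LL 3 and LL 5 held no read.

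The member with the highest PM mean was ENSOARG00020014408 (recovered length 3493 bp). In LL it ranged from 231 to 772 FPKM with a median of 548. In PM the lowest, median and highest libraries stood at 753, 1716 and 3482 FPKM, and in SOL at 1674, 2002 and 2240 FPKM. All SOL libraries were thus above all LL libraries, whereas PM 5 fell just below the highest LL libraries. Means were 531 ± 226 FPKM for LL, 1895 ± 965 for PM and 1992 ± 214 for SOL (6 libraries each, ± SD), with log2 differences from LL of 1.801 for PM and 2.03 for SOL (SE 0.32 for both). The spread was wide in PM and narrow in SOL, with SDs on the log2 scale of 0.77 and 0.16.

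ENSOARG00020006228 (4557 bp), second in PM mean but above ENSOARG00020014408 in LL and SOL mean, separated LL from both other muscles. Its lowest, median and highest libraries were 507, 884 and 1304 FPKM in LL, 1392, 1813 and 2133 FPKM in PM, and 1536, 2097 and 2690 FPKM in SOL. The highest LL library, LL 1, was close to the lowest PM library, PM 5, without reaching it. The 6 libraries averaged 877 ± 270 FPKM (SD) for LL, 1803 ± 299 for PM and 2110 ± 385 for SOL. The log2 differences from LL were 1.08 for PM and 1.31 for SOL (SE 0.21 for both). With a PM mean 2.06 times the LL mean, this gene met the rule only narrowly. Without LL 2, LL 3 and LL 5 the log2 difference of PM from LL was 0.78, and it was no longer called.

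**Figure D2:**
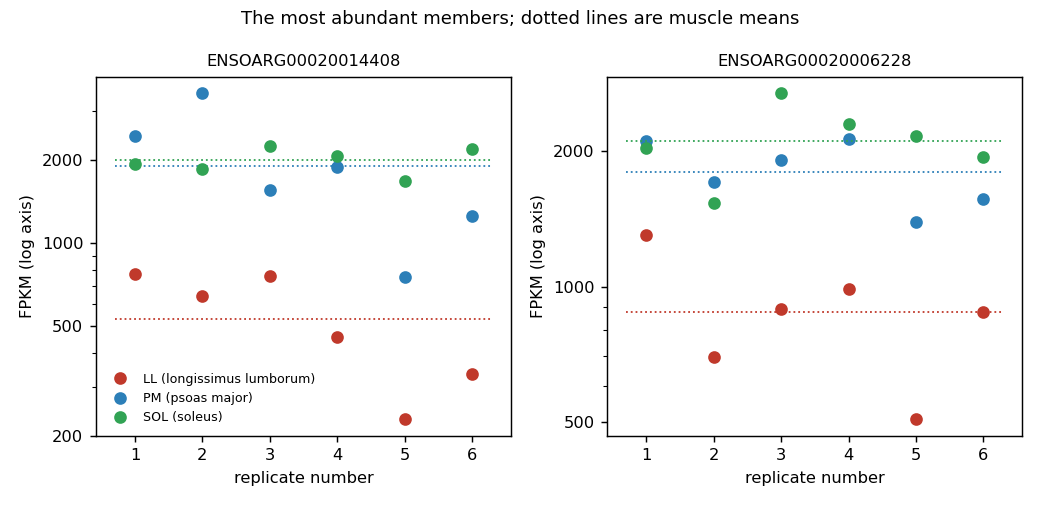
FPKM on a log axis against replicate number for the most abundant members, with 1 point per library and dotted lines at the means of the 6 libraries of each muscle. ENSOARG00020014408 was lowest at number 5 in all 3 muscles (231 FPKM in LL, 753 in PM and 1674 in SOL), and LL was the lowest muscle at every number in both panels.

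At intermediate level, ENSOARG00020023534 (1244 bp) had, in both comparisons with LL, 1 of the 2 largest called differences among members without overlap between the 2 muscles. It ranged from 20.8 to 60.7 FPKM in LL with a median of 29.9, from 61.8 to 172 in PM with a median of 108, and from 92.3 to 208 in SOL with a median of 153. No LL library reached a PM or SOL library, but the margin between LL 2 and PM 1 was small. Means over 6 libraries (± SD) were 33.7 ± 14.6 FPKM for LL, 109 ± 40.6 for PM and 151 ± 44.4 for SOL, and log2 differences from LL were 1.70 for PM and 2.198 for SOL (SE 0.27 for both).

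ENSOARG00020025374 (1085 bp) had the largest called difference of PM from LL among members whose PM and LL libraries did not overlap. Its lowest, median and highest libraries were 4.08, 6.59 and 20.5 FPKM in LL, 22.1, 32.3 and 47.6 in PM, and 13.7, 32.9 and 36.9 in SOL. LL 6 stood apart from the other LL libraries, which did not exceed 8.11 FPKM, and SOL 5 fell below LL 6. The log2 differences from LL were 2.16 for PM and 1.93 for SOL (SE 0.33 for both).

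ENSOARG00020019005 (1403 bp) lay near the lower bound of the rule, with means (± SD, n = 6) of 2.35 ± 1.77 FPKM for LL, 5.41 ± 2.61 for PM and 7.86 ± 2.13 for SOL. LL ranged from 0.4996 to 5.02 FPKM around a median of 2.02, and PM from 2.93 to 9.02 around 4.81. SOL ranged from 5.16 to 10.7 FPKM around 7.23. The lowest SOL library was only just above the highest LL library, while PM and LL overlapped. The log2 differences from LL were 1.42 for PM and 2.05 for SOL (SE 0.45 for both). That for PM was not called (limma adjusted p = 0.14) and ranged from 0.47 to 1.71 over the settings tried.

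The members fell into a group of 7 short genes with few reads and a group of 24 longer genes. The recovered lengths of the short genes were 123 to 282 bp, below the length of about 300 bp to which the RNA was fragmented per the labels' protocols. Among all 8837 genes with a PM mean of at least 5 FPKM, 1.69% were under 300 bp, beside 22.6% of the members. All 7 short lengths were divisible by 3, as were 7 of the 24 longer ones. Over all 31 members this held for 14 (45.2%), beside 45.0% of those 8837 genes. The share among other genes under 300 bp was not measured. The longer members ran from 606 to 4557 bp. The rule set no bound on reads: the short members had a mean of 8.33 to 37.2 reads per PM library, and the longer ones of at least 48.3.

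For 6 of the 7 short members, LL 2, LL 3 and LL 5 held no read at all. LL 4 held no read for 2 of them, whereas LL 1 and LL 6 had reads for all 7. ENSOARG00020011257 (183 bp) had 7 reads in LL 1, 15 in LL 6 and 0 in the other LL libraries. In PM it had 9 to 35 reads per library and in SOL 6 to 19. Its LL libraries thus ranged from 0 to 7.34 FPKM (median 0), its PM libraries from 3.96 to 14.9 (median 8.04) and its SOL libraries from 2.53 to 8.71 (median 6.01), with LL 6 inside the range of both. ENSOARG00020024607 (192 bp) had 5 reads in LL 1, 6 in LL 4, 2 in LL 6 and 0 in the rest, against 2 to 23 per library in PM and 1 to 16 in SOL. In FPKM its LL libraries ran from 0 to 2.47 (median 0.467), its PM libraries from 0.936 to 9.36 (median 4.82) and its SOL libraries from 0.437 to 6.43 (median 4.24). The fitted log2 differences of such genes depend on the pseudocount and the libraries used: for PM against LL, those of ENSOARG00020011257 ranged from 2.27 to 6.61 and those of ENSOARG00020024607 from 1.12 to 4.87 over the settings tried.

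Other genes at this depth also lacked reads in LL, but seldom in LL 2, LL 3 and LL 5 together, as 6 of the 7 short members did. The members were chosen for a low LL mean, and the other genes were not. Of 1734 other genes with a mean of 8 to 25 reads in PM, each LL library lacked a read for between 7.04% (LL 6) and 43.6% (LL 3). The range was 2.65% to 4.67% in PM and 3.29% to 15.7% in SOL, the latter in SOL 5. All of LL 2, LL 3 and LL 5 lacked a read for 106 of these genes, or 6.11%, and all of LL 1, LL 4 and LL 6 for 20, or 1.15%. The share was alike for the shorter and longer of them, at 6.25% under 300 bp and 6.11% from 300 bp on. The order of the libraries was not the same as for the members: LL 1 lacked more of the other genes (23.4%) than LL 5 (19.8%), yet lacked no short member. The part of these missing reads in the short members' low LL level was not tested, but the level in the remaining libraries was measured. Without LL 2, LL 3 and LL 5, 2 of the 7 short members and 16 of the 24 longer ones still met the rule. These libraries held no read for 6 of the short members, so leaving them out raised those LL means by construction. The 2 counts therefore cannot show what part the missing reads had.

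**Figure D3:**
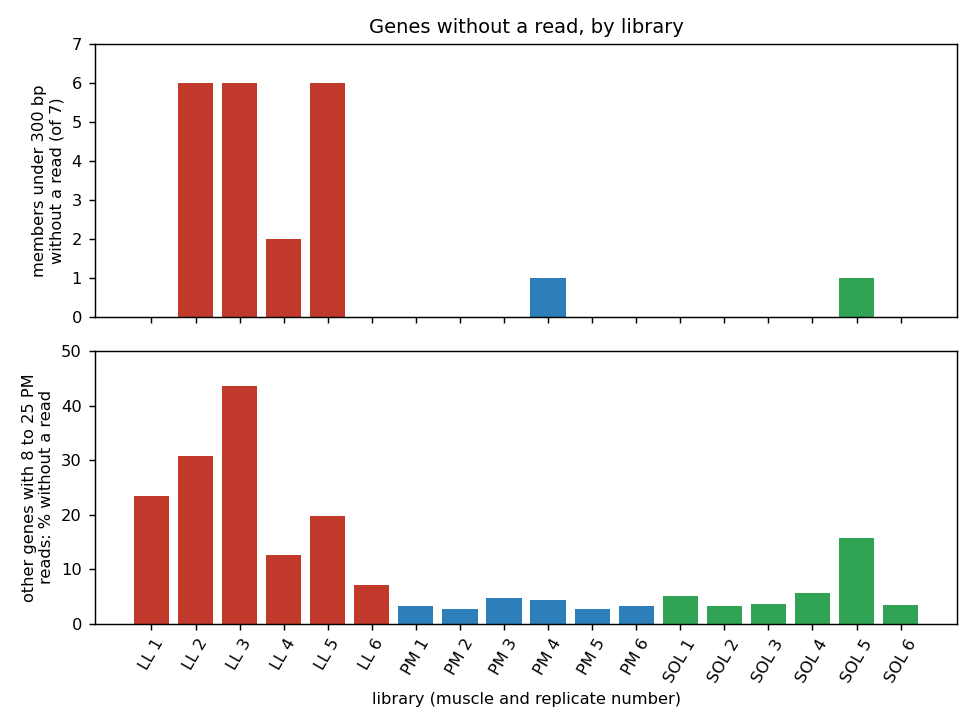
Bars give, for each library, the number of the 7 members under 300 bp without a read (upper panel) and the percentage of 1734 other genes with a mean of 8 to 25 PM reads that had no read (lower panel), coloured red for LL, blue for PM and green for SOL. LL 2, LL 3 and LL 5 lacked 6 short members each, LL 1 and LL 6 lacked none, and the LL libraries stood at 7.04% to 43.6% in the lower panel.

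The 24 longer members gave a more even picture of LL. In each LL library, the median ratio of these genes to their PM mean was between 0.351 and 0.447, in PM libraries between 0.785 and 1.31, and in SOL libraries between 0.885 and 1.28. Each of the 6 LL libraries was thus low over the longer members. Of the 24 longer members, 12 were called for PM against LL and 23 for SOL against LL. Of the 7 short ones these numbers were 1 and 5. The median SD of log2 values for LL, PM and SOL was 0.56, 0.48 and 0.41 for the longer members, and 2.60, 1.29 and 1.29 for the short ones. The SD was largest in LL for 17 of the 31 members, beside 59.7% of all genes tested.

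On the PM side, 12 of the 31 members (38.7%) had their highest PM value in PM 2 and 9 (29.0%) in PM 1. Over the 8837 genes with a PM mean of at least 5 FPKM, PM 2 was highest for 26.9% and PM 1 for 22.02%. PM 4 was highest for 5 members (16.1%), beside 5.67% of those genes, and PM 3 for 0 members, beside 9.68%. In 1 member of 3650 bp, PM 2 stood at 21.0 FPKM and the other PM libraries at 1.16 to 3.73, and its ratio of PM to LL fell from 3.91 to 1.77 without PM 2. Without PM 2, 20 of the 31 members still met the rule.

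PM and SOL were close for all members by the rule. The SOL mean was above the PM mean for 21 of 31 members as deposited and for 17 after median-ratio scaling. In the model of all genes, 0 members were called for SOL against PM at an adjusted p under 0.05, beside 11% of all genes with a call towards SOL and 5.82% with a call towards PM. At an unadjusted p under 0.05 in limma, 2 members passed, beside 28.6% of all genes. With limma's voom on recovered reads 1 member was called, beside 17.8% of all genes in either direction, and with the replicate number as a block 2 were called, beside 19.8%. Since numbers pair the SOL and PM libraries, the blocked values apply to this comparison. The 2 members were ENSOARG00020005146 and ENSOARG00020023760, both higher in SOL.

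ENSOARG00020005146 (2398 bp) ranged from 12.2 to 27.8 FPKM in LL (median 14.2), from 24.4 to 54.5 in PM (median 30.6) and from 36.5 to 74.1 in SOL (median 47.4). LL 3 lay inside the PM range, PM 2 stood apart above the other PM libraries, and SOL was clear of LL. The SOL mean was 1.48 times the PM mean, just inside the bound of 1.5, and the log2 difference of SOL from PM was 0.58 (SE 0.22; limma adjusted p = 0.075, and 0.035 with the block). The adjusted p in limma was 0.020 without PM 2 and 0.037 without LL 3, which enters only through the spread shared by the muscles. Of the alternative settings, 7 gave a call and 22 did not. The limma adjusted p reached 0.18 among them, and it was 0.15 with median-ratio scaling, where the log2 difference was 0.45. Among the members, it and ENSOARG00020019005 (log2 difference 0.63) were the highest in SOL against PM. ENSOARG00020024607 and ENSOARG00020011257 were the lowest, at -0.30 (SE 0.89) and -0.51 (SE 0.91), and neither was called.

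Levels of some members also varied with the replicate number, which the rule did not use. An F-test of the number in the blocked model, added after the values had been seen, called 2 of the 31 members at an adjusted p under 0.05 over all genes, beside 1.89% of all genes tested. These were ENSOARG00020012528 (282 bp, limma adjusted p = 0.00040) and ENSOARG00020023760 (1119 bp, limma adjusted p = 0.010). Both were singled out after their values were seen.

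ENSOARG00020012528 moved with the number in all 3 muscles. It was lowest at number 5 in every muscle, at 0.581 FPKM in LL, 0.856 in PM and 1.20 in SOL, and highest at number 6, at 7.94, 20.2 and 26.8 FPKM. Medians were 4.78 FPKM in LL, 9.79 in PM and 6.53 in SOL. The 3 muscles overlapped. At number 3, LL (4.86 FPKM) exceeded PM (4.78) and SOL (2.85). LL was the lowest muscle in 5 of the 6 numbers. Its log2 differences from LL were 1.00 for PM and 0.89 for SOL (SE 0.79 for both). This SE is from the fit without a block, so it holds the variation with the number. Neither difference was called in that fit (limma adjusted p = 0.66 and 0.44). With the replicate number as a block, all 31 members were called for SOL against LL, although only PM and SOL were taken as pairs. Reads were few, 2 to 25 per LL library, 3 to 73 per PM library and 5 to 98 per SOL library.

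ENSOARG00020023760 kept LL apart from both other muscles while moving with the number. LL ranged from 7.96 to 22.4 FPKM (median 12.4), PM from 23.1 to 46.7 (median 27.4) and SOL from 28.3 to 64.2 (median 38.3). Numbers 2 and 6 were the highest in all 3 muscles. The log2 difference of SOL from PM was 0.40 (SE 0.25).

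**Figure D4:**
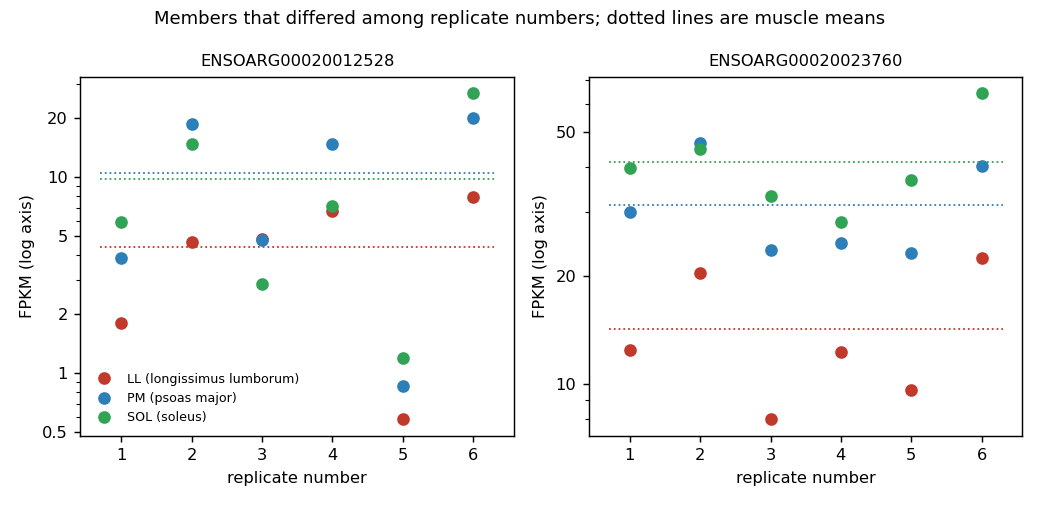
FPKM on a log axis against replicate number for the members called in the F-test of the number, with 1 point per library and dotted lines at the means of the 6 libraries of each muscle. In ENSOARG00020012528 the points of all 3 muscles fall at number 5 and are highest at number 6, and in ENSOARG00020023760 LL stays below PM and SOL at every number.

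Among the 24 members with reads in every library, the lowest library had the same number in all 3 muscles for 6, and this number was 5 for 4 of them. Among 8707 genes with a PM mean of at least 5 FPKM and a value above 0 in every library, the shares were 7.04% for any number and 1.06% for number 5. Number 5 was picked after the members' values had been seen, so its share is no comparison set in advance. ENSOARG00020014408 and ENSOARG00020012528 were among the 4.

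The members otherwise did not vary together within muscles. Deviations from the muscle means over 18 libraries had a median correlation of 0.08 over the 465 pairs of members, beside 0.06 over all pairs of the 9072 genes that averaged 5 FPKM or more. Only 2 pairs, or 0.430%, exceeded 0.7, beside 1.14% of all pairs, and both joined short members that lacked reads in LL 2, LL 3 and LL 5. Over the longer members, the closest pair was ENSOARG00020014408 with a gene of 701 bp (r = 0.70).

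The members differed in how closely they followed the common pattern, taken as the mean of their standardised log2 values in 18 libraries. Pearson's r with this mean, to which each member contributes, was lowest for ENSOARG00020012528 (0.44) and had a median of 0.79. Outside the members, ENSOARG00020005629 (4023 bp) was most like it, with an r of 0.93 over 18 libraries. It averaged 96.5 ± 17.6 FPKM for LL, 186 ± 40.1 for PM and 184 ± 18.5 for SOL (± SD, n = 6), so that it missed the fold of 2 with ratios of 1.93 and 1.90. The next, ENSOARG00020004162 (1080 bp, r = 0.91), was nearly absent from LL at 0.151 ± 0.288 FPKM and rose from 12.2 ± 9.98 in PM to 51.8 ± 9.75 in SOL, which is outside the bound on evenness.

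The bounds of the rule cut through a continuous range of genes. Of genes that met the level and the evenness, 11 had a smaller ratio to LL of 2 to 2.2, and 24 had one of 1.8 to 2. The member nearest to the fold bound had a ratio of 2.02, and the gene nearest outside it one of 1.98, with 5.95 FPKM in LL, 11.8 in PM and 15.5 in SOL. At the bound on evenness, the ratio of the 2 muscles was 1.49 for the nearest member and 1.504 for the nearest gene outside. At the bound on level, the PM mean was 5.15 FPKM for the nearest member and 4.98 for the nearest gene outside. With each library left out in turn, 6 of the 31 members met the rule in all 18 cases, and the other 25 failed it in at least 1.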

How the data were processed

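Per the labels' protocols, RNA was ribosome-depleted, fragmented and made into cDNA with random hexamers, reads were aligned with HISAT2 (2.2.1), and transcripts were assembled with StringTie (2.2.0). No build, annotation, counter or strandedness is stated in these sources. The authors deposited FPKM, that is reads scaled to gene length and library total, although the header names no unit. Every positive value of 17448 genes gave reads within 0.002 of a whole number for a whole gene length and 1 total per library, and reads, lengths and totals were recovered on that basis. Lengths of genes with few reads may be a fraction of the true length.

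The 15434 genes that averaged 0.1 FPKM or more were fitted in limma (3.58.1, under R 4.3.3) as log2(FPKM + 0.1), with muscle as the only factor, a trended prior variance and Benjamini-Hochberg adjustment over all genes, two-sided. The table holds normalized values, so no count test was the main test. Recovery and model were tested on simulated data. The members and lists were chosen with earlier results of these data known. The gene and marker lists had no members, since identifiers have no names. Named members were, per comparison with LL, the 2 largest called differences without overlap, the 2 highest and 2 lowest in SOL against PM, and the 2 most abundant in PM.

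Deviations from muscle means correlated between same-numbered PM and SOL libraries in all 6 cases (r from 0.13 to 0.23 over 15434 genes), which were taken as pairs. For LL the lowest such values, 0.090 with PM and 0.086 with SOL, were under the 0.1 required. They still exceeded the highest values between other numbers, 0.0070 and 0.052, so the main LL comparisons may leave out a pairing. Alternatives were the replicate block, pseudocounts of 1 and 0.01, other filters, median-ratio scaling, fits on 2 muscles, quality weights, voom on recovered reads, left-out libraries and other bounds of the rule. Leaving out LL 2, LL 3 and LL 5 together, a minimum of 30 PM reads and the F-test of the number were chosen after seeing the data. The same holds for the share of genes lowest at number 5.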

Additional observations from a re-analysis of the deposited data

Results flagged for a closer look

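In 24 sets of 6 libraries (8 named members in 3 muscles), 2 had a library farther from the rest than Dixon's test allows. Chance gives about 1 in 20 where values follow a normal distribution. The sets were taken as FPKM without logs, and that rate was not checked for them. ENSOARG00020025374 stood at 20.5 FPKM in LL 6, against 4.08 to 8.11 in the other LL libraries. ENSOARG00020005146 stood at 54.5 FPKM in PM 2, against 24.4 to 35.7 in the other PM libraries. Over all 31 members, 8 of 93 sets were past the same value.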

How the results depend on the processing

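Which genes met the rule depended on single libraries more than their number did. With each library left out in turn, 24 to 45 genes met it, and 6 of the 31 members met it in all 18 cases. Between 20 (without PM 2) and 29 (without LL 6) of the members did so in any one case. Other bounds gave 153 genes at a fold of 1.5, 10 at a fold of 3, 114 at a PM mean of at least 1 FPKM, 14 at 10 FPKM and 19 with a narrower bound on the evenness of PM and SOL. Medians in place of means gave 43 genes, 22 of them members, and median-ratio scaling 30, with 25 members. A minimum of 30 PM reads left 25 members. The numbers pair SOL and PM but not LL by the rule used, although each LL library correlated best with its own number: the lowest such r, 0.090 against PM and 0.086 against SOL, exceeded the highest between other numbers, 0.0070 and 0.052, a hint from the data, not the design. The replicate block gave 21 called members and 415 called genes for PM against LL in place of 13 and 229, and 2 called members for SOL against PM in place of 0. It left the counts for SOL against LL within 1.5 times (31 members). The fit on the 2 muscles compared gave 131 genes for PM against LL and 2 members for SOL against PM. Quality weights and voom each gave 1 member for SOL against PM, as did leaving out LL 2, LL 3 and LL 5, which gave 146 genes for PM against LL. With 1 library left out, called members numbered 10 to 16 for PM against LL, 25 to 29 for SOL against LL and 0 to 1 for SOL against PM, and called genes 138 to 340, 3283 to 3961 and 2056 to 2925. Leaving out PM 1 or PM 4 lowered the genes for PM against LL to 150, PM 6 to 149 and PM 2 to 138. Without LL 2, LL 3 and LL 5, ENSOARG00020011257 differed by 2.52 and ENSOARG00020006228 by 0.78 for PM against LL, in place of 4.40 and 1.08, and ENSOARG00020024607 by 0.82 for SOL against LL, in place of 2.92; none of these kept its call. The cause was not tested. Reads limit the short members, where 1 PM library held as few as 0.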
